A study of Mus musculus with 42 samples.

Results

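Whole blood gene expression was compared between 6 mo. 3xTg-AD mice that received transcranial direct current stimulation (tDCS) over the prefrontal cortex and 6 mo. 3xTg-AD mice that received sham stimulation through an electrode at the same site. The 10 mice are those whose labels give this strain, age and electrode site, out of 42 mice in the series: the 6 tDCS mice are tdcs7, tdcs2, BN, BO, FE and FF, and the 4 sham mice are FA, FB, FC and FD. All 10 mice are of the 3xTg-AD strain, which carries mutant human transgenes, among them MAPT with P301L and APP with the Swedish mutation, on a mixed C57BL/6;129 background, and all were 6 months old. Every mouse had a unilateral epicranial electrode implanted under anaesthesia, so the controls share the surgery and the handling. The stimulated mice received anodal current in 6 sessions of 15 min each, and the sham mice had the same procedure without current. Only autosomal genes are described. Of the 15613 genes in the table, 15078 are autosomal, and 14952 of these had at least 1 read in the 10 mice and were tested.

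tDCS passes a weak constant current through the skull and shifts the excitability of the neurons beneath the electrode, and it is studied as a way to support memory in Alzheimer's disease. Blood does not hold those neurons. Its RNA comes mostly from red cell precursors and reticulocytes, platelets, neutrophils, monocytes and lymphocytes, and in mice neutrophils are released quickly from the marrow on stress, injury or inflammation. A bulk blood profile cannot tell apart a change in the number of cells of a type from a change in the RNA of each cell, and this holds for every cell type marker described here. The mice with a hippocampal electrode, 8 tDCS and 5 sham mice of the same strain and age, share no mouse with the prefrontal groups and serve as a second set of values for the same genes. They followed a different stimulation schedule from the prefrontal mice, so site and schedule cannot be told apart.

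Library totals ran from 16188537 reads in tDCS mouse FF to 33701994 in sham mouse FD. The mean was 21478000 ± 3542700 reads in the tDCS mice and 27258000 ± 4404900 in the sham mice (SD, n = 6 and 4; exact permutation test, two-sided, p = 0.0333, adjusted p = 0.114 over 6 library measures; the smallest p that 210 arrangements allow is 0.00476). Haemoglobin genes, which the laboratory's globin depletion left in part, took 37.1% ± 11.8 of the reads in the sham mice and 37.6% ± 8.04 in the tDCS mice (SD), a difference of 0.493 percentage points (exact permutation test, p = 0.919), and single libraries ranged from 25.4% to 53.6%. Mouse FE stood apart: its score on the first principal component was -127.6, outside the range of 2.061 to 65.27 of the other tDCS mice, and it had the fewest autosomal genes with a read, 11866. As a check of the strain labels, Npy, a neuropeptide gene read in blood of this strain, had between 4277 and 29814 reads in each of the 10 prefrontal mice and at most 2 reads in any C57BL/6 mouse. It had 0 reads in 1 hippocampal sham mouse and 3 reads in 1 hippocampal tDCS mouse labelled 3xTg-AD, so hippocampal list medians that move by over 1.5 times, or change the direction of a gene count, without this pair of mice, whose strain is in doubt, are given both ways. Expression levels below are counts per 1000000 reads (CPM) of the library size after scaling by the trimmed mean of M values, so CPM compare mice for 1 gene and not genes with each other. The scaling factor was 1.64 in BO, 1.52 in sham mouse FB, 1.48 in BN, 1.27 in tdcs2 and 1.08 in FF. It was 0.913 in FA, 0.908 in FC, 0.707 in tdcs7, 0.629 in FE and 0.539 in FD. A higher factor gives a lower CPM, so contrasts of BN and BO with other mice depend on it.

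No autosomal gene passed an adjusted p of 0.05 with prefrontal tDCS in edgeR's quasi-likelihood test with Benjamini-Hochberg adjustment, 0% of the 14952 genes tested, and the smallest adjusted p was 0.243. At an unadjusted p under 0.05, 440 genes were higher in the tDCS mice (2.94%) and 564 were lower (3.77%), 1004 in all, and the median log2 fold change over all genes was 0.01. Shares of a gene list can be read against these shares, since a list that holds a like share of genes past that threshold does not stand out from the rest. With FE and FF as the only tDCS mice, a setting given for some lists below, the median over all genes was -0.17 and 42.8% were higher. At an unadjusted p under 0.05, 3.67% were higher and 3.63% lower in that setting. The DESeq2 likelihood ratio test, the kind of test the study used, called 7 genes at adjusted p under 0.05: Stfa2, Abcd2, Itgb2l and Stfa1 at higher values and S100a16, Adh7 and Samd4 at lower values. A fit of all 42 mice called Stfa2 and Abcd2, each at adjusted p = 0.0401. In 74 genes every tDCS mouse lay above every sham mouse (0.495% of the genes tested), and in 59 genes every tDCS mouse lay below (0.395%).

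The 5 genes with the smallest p among those at higher values were Stfa2, Itgb2l, Abcd2, Stfa1 and Mmp8, and in each of them the groups did not overlap. All but Abcd2 are known from neutrophils: stefins of the Stfa cluster inhibit cysteine proteases, Itgb2l is a neighbour in sequence of the β2 integrin that leukocytes use to adhere, and Mmp8 is the collagenase stored in neutrophil granules. Abcd2 encodes a peroxisomal transporter of very long chain fatty acids.

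Stfa2 (chromosome 16, 36403992 to 36408457, minus strand, mm10) had no read in any of the 4 sham libraries, where 3 reads, the upper limit that a count of 0 allows, would be 0.0751 to 0.165 CPM. In the tDCS mice it stood at 1.19 CPM in tdcs7, 4.43 in tdcs2, 0.388 in BN, 0.277 in BO, 5.37 in FE and 4.24 in FF. Every tDCS mouse therefore had Stfa2 reads and no sham mouse did, with BN and BO far below the other 4 tDCS mice. Against the floor of 3 reads per sham library the mean was at least 20.8-fold higher with tDCS (adjusted p = 0.243). Without BN the adjusted p was 0.0487 and without BO it was 0.0472. In the hippocampal mice the log2 fold change of Stfa2 was 0.77 (SE 0.86), and the difference between the sites had an unadjusted p of 0.000462 and an adjusted p of 0.587. Members of this cluster are near-identical copies, so reads can be split among them and each single value is uncertain.

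Stfa1 (chromosome 16, 36276951 to 36285373) stood at 0.131, 0.601, 1.10 and 0 CPM in sham mice FA to FD. The tDCS values were 2.45 in tdcs7, 4.16 in tdcs2, 2.36 in BN, 2.29 in BO, 10.5 in FE and 7.28 in FF. The lowest tDCS mouse was thus above the highest sham mouse, and FE and FF were highest (log2 fold change 3.35, SE 0.75, adjusted p = 0.409). The hippocampal log2 fold change was 1.47 (SE 0.40, unadjusted p = 0.00174).

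Itgb2l (chromosome 16, 96422288 to 96443619) had 1 read in all the sham libraries together, in FB, and 196 in the tDCS libraries, a ratio of 134 per scaled library size with an exact 95% counting interval of 23.8 to 5326. Its tDCS levels were 0.633, 2.93, 0.0277, 1.91, 0.635 and 0.802 CPM in tdcs7, tdcs2, BN, BO, FE and FF. BN, with 1 read, was at the level of the 1 sham mouse that had any, and the interval covers counting error only (adjusted p = 0.38). Hippocampal sham mice of the same strain and age had 3 to 163 reads (median 18), against 1 to 88 (median 11.5) in the prefrontal tDCS mice.

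Abcd2 (chromosome 15, 91145871 to 91191799) showed a narrow spread within each group. Sham mice FA to FD stood at 0.568, 0.551, 0.230 and 0.385 CPM, and tdcs7, tdcs2, BN, BO, FE and FF at 1.90, 2.76, 3.11, 1.36, 2.47 and 2.41 CPM. No tDCS mouse came near the sham range, BN and BO included. In reads not scaled for library size, the prefrontal sham mice had 5 to 22 and the prefrontal tDCS mice 24 to 112. Hippocampal sham mice of the same strain and age had 24 to 83 reads, so they did not share the low counts of the prefrontal sham mice. The log2 fold change was 2.40 (SE 0.51, adjusted p = 0.38) and at the hippocampal electrode 0.85 (SE 0.37, unadjusted p = 0.0353).

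Mmp8 (chromosome 9, 7558456 to 7568485) stood at 15.4, 26.8, 24.6 and 19.3 CPM in the sham mice FA to FD. In the tDCS mice it was 66.0 in tdcs7, 156 in tdcs2, 32.8 in BN, 29.4 in BO, 163 in FE and 94.0 in FF. BN and BO lay just above the highest sham mouse and the other 4 tDCS mice well above it (log2 fold change 2.07, SE 0.48, adjusted p = 0.442). In reads not scaled, BN had 1184 of 24392536, BO 1168 of 24224551 and tdcs7 834 of 17883638. The gap between tdcs7 and these 2 mice thus rests on the scaling factor.

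**Figure D1:**
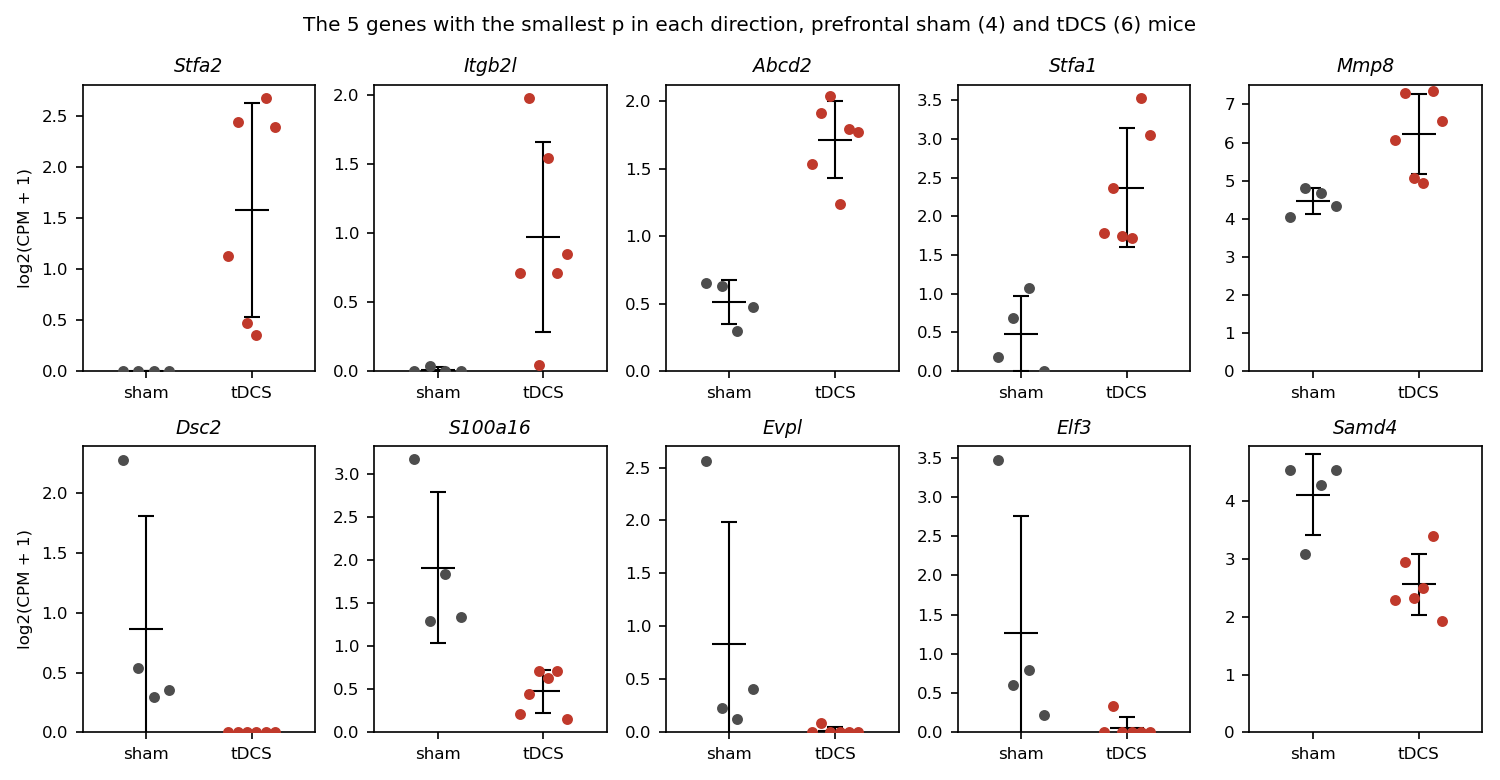
Levels, as log2(CPM + 1), of the 5 genes of smallest p at higher (upper row) and at lower values (lower row), in 4 sham mice (grey) and 6 tDCS mice (red), each point 1 mouse, with the mean and SD as bars. In the upper row all tDCS mice lie above all sham mice, BN and BO being the lowest tDCS points of Stfa2 and Mmp8; in the lower row sham mouse FA is the high point of Dsc2, S100a16, Evpl and Elf3.

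Markers of mature neutrophils lay at higher values with prefrontal tDCS throughout: all 18 genes of the list had a log2 fold change above 0, 9 of them at an unadjusted p under 0.05 against 2.94% of all genes, with a median of 0.88 against 0.01 over all genes. None passed the adjusted threshold. The summed level of the list was 1365, 2252, 2850 and 1447 CPM in sham mice FA to FD. In the tDCS mice it was 4897 in tdcs7, 9551 in tdcs2, 2437 in BN, 1945 in BO, 9274 in FE and 6350 in FF. The groups overlapped, since BN and BO lay inside the sham range while the other 4 tDCS mice lay above it. Leaving out single mice gave medians of 0.66 to 1.15, with 17 or 18 of the 18 genes higher and 6 to 13 at an unadjusted p under 0.05; the highest median came without sham mouse FC. Genes that share a cell type move together, so the 18 genes are not 18 independent observations. Mmp8 is a gene of this list and so contributes to the sum. Stfa1 and Stfa2 were highest in tdcs2, FE and FF, the mice with the highest sums. In BN and BO both genes lay above every sham mouse although the sum did not. How far Stfa1, Stfa2 and Mmp8 differ apart from the sum was not tested.

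S100a8 and S100a9, the subunits of calprotectin, are abundant neutrophil transcripts and make up most of the summed level, so their order of mice is not a second observation. S100a9 stood at 545, 1049.5, 1233 and 660.1 CPM in FA to FD and at 2127, 4711.5, 1066, 962, 4478 and 3117 CPM in tdcs7, tdcs2, BN, BO, FE and FF. BN and BO were again within the sham range (log2 fold change 1.65, SE 0.51, adjusted p = 0.611). S100a8 had a log2 fold change of 1.64 (SE 0.51). Ly6g, the surface antigen by which mouse neutrophils are commonly recognized, stood at 2.84, 11.6, 4.97 and 6.11 CPM in the sham mice and at 28.3, 32.3, 11.9, 4.01, 27.4 and 30.5 CPM in the tDCS mice in the same order, with BO inside the sham range and BN just above its highest mouse (log2 fold change 1.80, SE 0.51, adjusted p = 0.595).

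Granule genes that neutrophils transcribe during their development in the marrow were taken as a second list, of which 8 of 10 were tested. Of these, 6 were higher and 2 lower, and the median log2 fold change of the list was 1.28, with the lowest at -1.52. Of the 6 higher genes 4 had an unadjusted p under 0.05, against 2.94% of all genes. Chil3, a chitinase-like protein, stood at 8.17, 24.8, 8.69 and 16.9 CPM in FA to FD and at 82.9, 35.0, 49.8, 20.9, 26.3 and 47.0 CPM in tdcs7, tdcs2, BN, BO, FE and FF. Only BO overlapped the sham mice (log2 fold change 1.57, SE 0.43, adjusted p = 0.577). The log2 fold changes were 1.45 (SE 0.49) for Lcn2, the iron-withholding lipocalin, 1.57 (SE 0.61) for Camp, the cathelicidin, and 1.51 (SE 0.60) for Ngp, a neutrophil granule protein. In Camp sham mouse FB stood at 56.4 CPM against 8.39 to 11.0 in the other sham mice, above 4 of the 6 tDCS mice. The mice highest in these marrow genes, tdcs7 and FF, were not those highest in the mature markers, tdcs2 and FE: the summed granule list was 816 CPM in tdcs7 and 573 in FF against 305 in tdcs2 and 184 in FE. The sum was 155 CPM in BN and 174 in BO. Sham mouse FB, at 297 CPM, lay above BN, BO and FE, and the other sham mice stood at 69.0 to 89.7 CPM, so the groups overlapped.

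**Figure D2:**
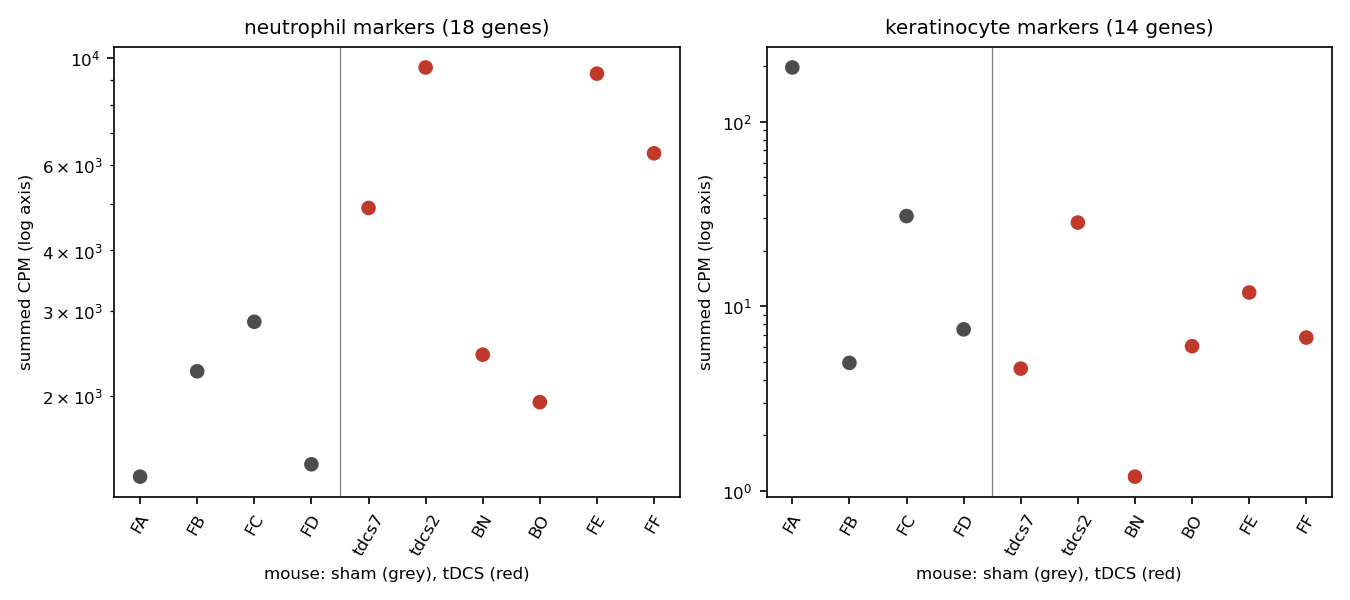
Summed CPM of the neutrophil markers (18 genes, left) and of the keratinocyte markers (14 genes, right) in each mouse, on log axes, sham mice in grey and tDCS mice in red. BN and BO lie within the sham range of the neutrophil sum and the other 4 tDCS mice above it, from 4897 to 9551 CPM; in the keratinocyte sum sham mouse FA, at 197 CPM, lies above all other mice.

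At the hippocampal electrode the same 18 neutrophil markers were all at higher values with tDCS (median 0.76 on the log2 scale), 5 of them at an unadjusted p under 0.05 against 8.83% of all genes there. Without the pair of hippocampal mice whose Npy reads did not match their strain label, all 18 were still higher and the median was 0.87. No marker of the list had an interaction p under 0.05 between stimulation and site, a test that 6.78% of all genes passed at that level and none at an adjusted p of 0.05, the smallest adjusted p being 0.587. All 8 granule genes were also higher at the hippocampal electrode, with a median of 0.70, or 1.22 without that pair.

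The study called a set of genes for tDCS over both electrode sites together. That list was chosen on these samples, the 10 prefrontal mice included, and so gives no independent evidence of its direction, but the size of each change at the prefrontal electrode alone can be described. Of the 23 autosomal genes tested, 12 were higher and 11 lower with prefrontal tDCS, 8 of them higher and 4 lower at an unadjusted p under 0.05, and none passed the adjusted threshold. Each gene had the same sign at the hippocampal electrode, where 21 of the 23 had an unadjusted p under 0.05, and the interaction p between sites ranged from 0.169 to 0.99.

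Retnlg, a resistin-like protein of neutrophils, had the smallest p of the list (log2 fold change 1.67, SE 0.41, adjusted p = 0.442). It stood at 125, 145, 154 and 135 CPM in FA to FD, a narrow range, and at 416, 583, 375, 124, 716 and 451 CPM in tdcs7, tdcs2, BN, BO, FE and FF. BO alone remained at the sham level. Other genes at higher values were the stefin copies Stfa2l1 (log2 fold change 1.70, SE 0.46) and Gm5483 (1.65, SE 0.50), Casp4, the caspase that senses intracellular lipopolysaccharide (1.69, SE 0.49), Il1r2, the decoy receptor of interleukin 1 (2.26, SE 0.81), the chemokine receptor Ccr1 (1.30, SE 0.47) and the intermediate filament gene Vim (1.05, SE 0.33). Log2 fold changes below 1 were found for Sirpb1b (0.99), the Fc receptor Fcgr3 (0.79), the mitochondrial ribosomal gene Mrpl33 (0.59), the lymphocyte antigen Cd52 (0.45) and the nuclear lamina gene Tmpo (0.33).

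Among the study's genes at lower values, Crat, the carnitine acetyltransferase, stood at 94.6, 61.4, 121 and 123 CPM in FA to FD and at 66.3, 36.4, 31.6, 42.0, 73.3 and 66.6 CPM in tdcs7, tdcs2, BN, BO, FE and FF. Sham mouse FB lay among the tDCS mice and the other 3 sham mice lay above all of them (log2 fold change -0.93, SE 0.33, adjusted p = 0.617). The phosphatase gene Ptp4a3 had a log2 fold change of -0.95 (SE 0.36). The other 9 lay between -0.78 and -0.63: Mical3 (-0.78), Pabpc1, the cytoplasmic poly(A)-binding protein (-0.78), Ybx3 (-0.76), the transcriptional corepressor Cbfa2t3 (-0.71), the ubiquitin ligase Rnf123 (-0.71), Ago2, the slicer of RNA interference (-0.66), the adaptor subunit Ap1b1 (-0.66), the septin Sept1 (-0.65) and Ogdh of the citric acid cycle (-0.63). In Ybx3 and Mical3 mouse FE stood at the sham level, at 2973 and 18.6 CPM.

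**Figure D3:**
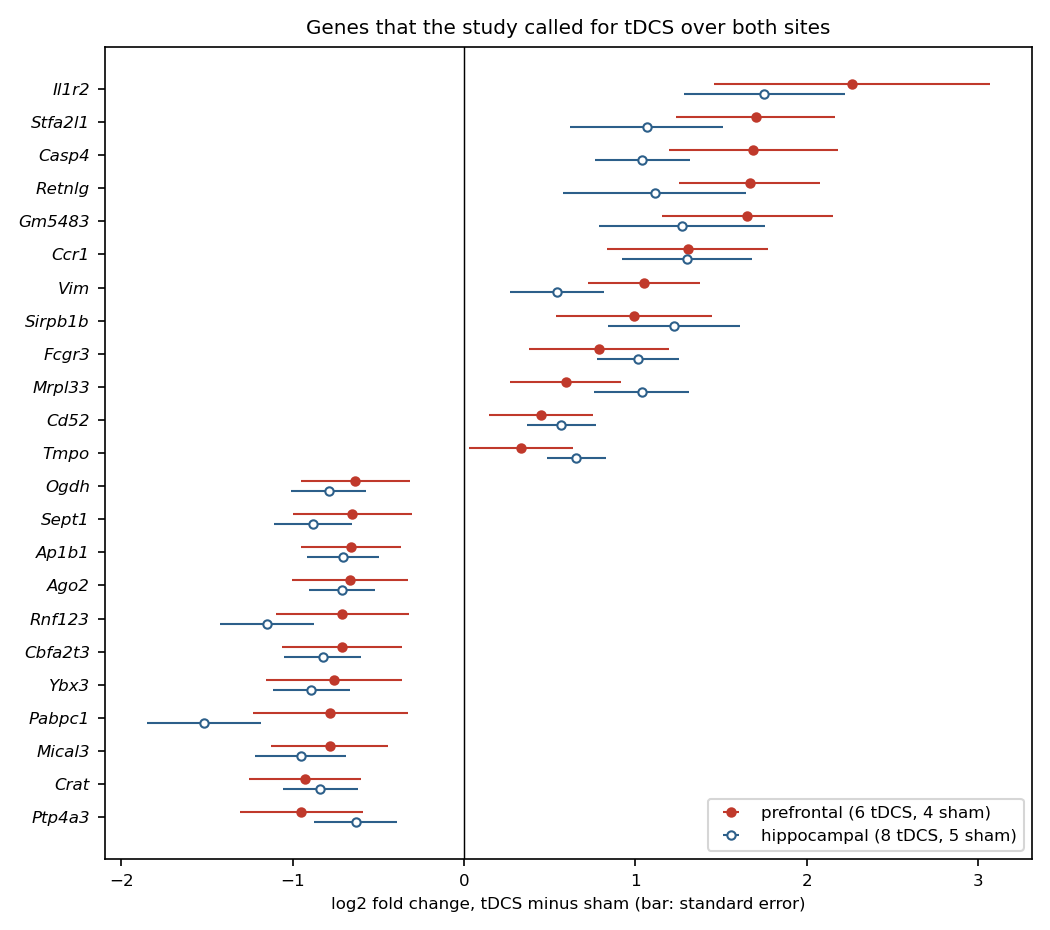
Log2 fold change (tDCS minus sham) with its standard error for the 23 autosomal genes the study called for tDCS over both sites, at the prefrontal electrode (filled, 6 tDCS and 4 sham mice) and at the hippocampal electrode (open, 8 and 5 mice). The sign is the same at both sites for every gene, as the choice of the list on these mice favours, and the values run from -0.95 for Ptp4a3 to 2.26 for Il1r2 at the prefrontal electrode.

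The genes with the smallest p at lower values were of another kind. Dsc2, a desmosomal cadherin, Evpl, the cornified envelope protein envoplakin, and Elf3, an epithelial transcription factor, are known from epithelia, and S100a16 is a calcium-binding protein of many epithelial cells. Their levels were low in all libraries and highest in 1 sham mouse, FA. Keratinocyte markers were listed to follow RNA of skin in these samples.

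Dsc2 stood at 3.84 CPM in FA, 0.451 in FB, 0.230 in FC and 0.275 in FD, and had no read in any of the 6 tDCS libraries. Against the floor of 3 reads per library it was at least 8.19-fold lower with tDCS (adjusted p = 0.38), a bound that rests on FA and is at least 2.17-fold without it. Evpl stood at 4.89, 0.175, 0.092 and 0.330 CPM in FA to FD and had 2 reads in the tDCS libraries, both in tdcs2. With 127 sham reads the ratio of sham to tDCS was 92.8 per scaled library size, with an exact 95% counting interval of 25.2 to 774, and 112 of the sham reads came from FA. This interval, like those of the other pooled read ratios, covers counting error only and not the spread between mice. Elf3 stood at 10.05, 0.526, 0.736 and 0.165 CPM in the sham mice and at 0.266 CPM in tdcs2, above FD, with no read in the other 5 tDCS mice (adjusted p = 0.38).

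S100a16 (chromosome 3, 90537254 to 90543151) stood at 8.04, 1.45, 2.58 and 1.54 CPM in FA to FD and between 0.115 and 0.638 CPM in all 6 tDCS mice, with no overlap (log2 fold change -3.00, SE 0.61, adjusted p = 0.38). Adh7, an epithelial alcohol dehydrogenase, stood at 3.63, 1.18, 1.98 and 0.826 CPM in the sham mice and between 0.139 and 0.665 CPM in the tDCS mice, also with no overlap (log2 fold change -2.72, SE 0.65, adjusted p = 0.442); it was named for its DESeq2 call. In both genes all 4 sham mice, and not FA alone, lay above every tDCS mouse.

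Samd4, an RNA-binding translational regulator, was the only one of the 5 lowest genes with levels well above the floor in both groups. It stood at 22.4, 7.46, 18.6 and 22.2 CPM in FA to FD and at 3.88, 6.75, 3.99, 4.69, 9.53 and 2.81 CPM in tdcs7, tdcs2, BN, BO, FE and FF. FB and FE overlapped and the other 3 sham mice lay above every tDCS mouse (log2 fold change -1.74, SE 0.38, adjusted p = 0.38). The hippocampal log2 fold change of Samd4 was -0.39 (SE 0.34).

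Of 14 keratinocyte markers, 12 were lower and 2 higher with tDCS, 6 of the 12 at an unadjusted p under 0.05 against 3.77% of all genes, with a median log2 fold change of -1.84, which is unchanged when the 2 genes with a group at 0 reads are set to their bound. Krt5, the keratin of the basal epidermis, stood at 14.5 CPM in FA and 0.175, 0.661 and 1.84 in FB, FD and FC, and reached 0.898 CPM at most in the tDCS mice, 4 of which had no read. Krt15, a keratin of the hair follicle, stood at 141 CPM in FA and 23.6 in FC, and at 18.4 in tdcs2 and 6.28 in FE. The list rested on FA: without it 6 genes were higher and 8 lower, the median was -0.12, and 1 gene in each direction had an unadjusted p under 0.05. The summed list was 197 CPM in FA, 4.93 to 30.8 in the other sham mice and 1.19 to 28.4 in the tDCS mice. Sfn, a cell cycle checkpoint protein of epithelia, had a log2 fold change of -0.48 (SE 0.54), and Pkp1, a desmosomal plaque protein, stood at 2.01 CPM in FA and at most 0.0333 in any other mouse. At the hippocampal electrode the median of the list was 0.85 over 14 genes with edgeR and -1.31 over 12 genes with DESeq2, so it has no settled direction there. Of Evpl, a gene of the list, hippocampal tDCS mouse AN had 468 reads and the others 0 to 41. How far the hippocampal list rests on AN was not tested. At the prefrontal electrode DESeq2 gave -0.60, with 9 of 11 genes lower. Of the 14 genes 4 had an interaction p under 0.05 between stimulation and site, against 6.78% of all genes. What part the epithelial content of FA has in the lower values of Dsc2, Evpl and Elf3 was not tested beyond these values.

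Dsc2, Evpl and Elf3 were read in most libraries of the series outside the stimulated prefrontal groups. Counting reads, Dsc2 had 0 in all 6 prefrontal tDCS mice of the 3xTg-AD strain and in 3 of the 4 prefrontal tDCS mice of C57BL/6, whose largest count was 1. The hippocampal sham mice of the 3xTg-AD strain at 6 months had 0 to 151. Of the hippocampal tDCS mice of that strain and age, AN had 473 and the others 3 to 47. Elf3 had 0 reads in 5 of 6 and in 3 of 4 of the prefrontal tDCS mice of these strains, and Evpl in 5 of 6 and in 2 of 4. Stfa2 had at least 1 read in every mouse outside the prefrontal sham group except 3 of the 6 hippocampal sham mice of C57BL/6 at 6 months. Low counts of the epithelial genes were not limited to these groups, since Evpl had 0 reads in all 3 C57BL/6 hippocampal sham mice of 3 months and in 2 of the 8 hippocampal tDCS mice of the 3xTg-AD strain, and 2 of those 3-month-old mice had 1 and 2 reads of Elf3. There was no C57BL/6 sham group with a prefrontal electrode in the samples used.

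**Figure D4:**
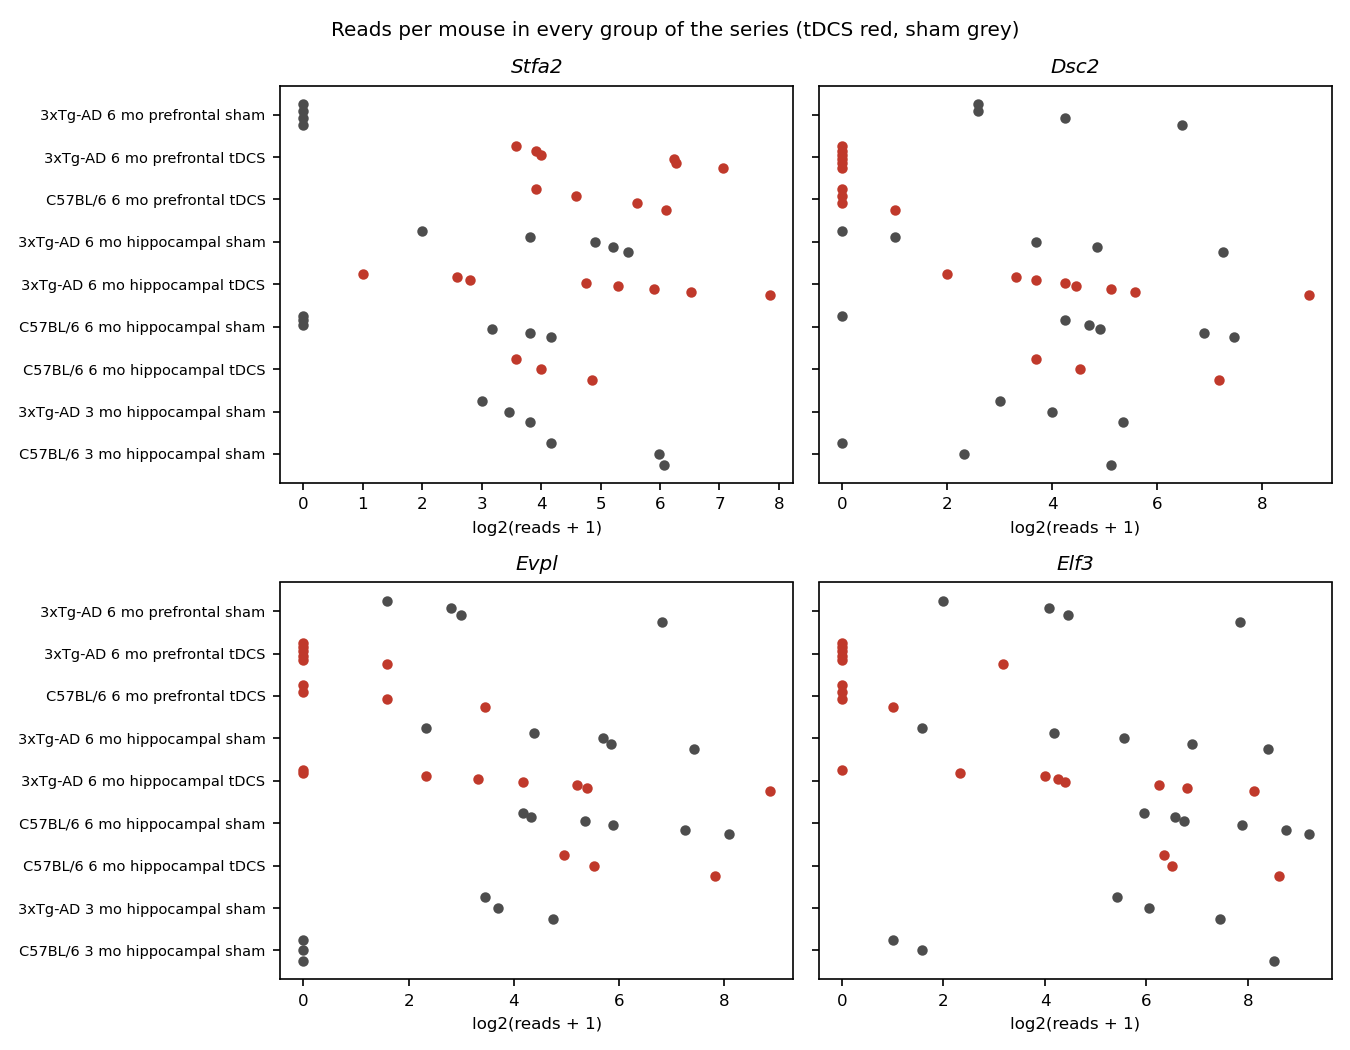
Reads of Stfa2, Dsc2, Evpl and Elf3 in each of the 42 mice as log2(reads + 1), by strain, age, electrode site and stimulation, tDCS mice in red and sham mice in grey. Stfa2 is at 0 in all 4 prefrontal sham mice; Dsc2 is at 0 in all 6 3xTg-AD and in 3 of 4 C57BL/6 prefrontal tDCS mice.

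Other gene lists of innate immunity had smaller medians than the 2 neutrophil lists. The innate receptor and inflammasome list is a pathway list and does not mark a cell type. Of 15 innate receptor and inflammasome genes, 13 were higher and 3 of these had an unadjusted p under 0.05, with a median log2 fold change of 0.58. The 3 were Il1rap, the accessory chain of the interleukin 1 receptor (log2 fold change 1.41, SE 0.51, adjusted p = 0.621), Tlr6 (1.13, SE 0.44) and the adaptor Myd88 (0.93, SE 0.39). The most abundant members, the Fc receptor Fcgr4 and the β-glucan receptor Clec7a, had log2 fold changes of 0.58 (SE 0.43) and 0.80 (SE 0.47). With hippocampal tDCS 14 of the 15 were higher, with a median of 0.40.

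Of 12 monocyte markers 10 were higher, with a median of 0.37, which was 0.16 without BO. With FE and FF as the only tDCS mice it was -0.20, against -0.17 over all genes. Hippocampal tDCS mice had 9 of the 12 higher, with a median of 0.34, or 11 with 0.58 without the pair of mice in doubt. Ly6c2, the antigen of inflammatory monocytes, stood at 20.4 to 42.2 CPM in the sham mice and at 19.1 in FE, 41.4 in FF and 49.5 to 69.7 in the other 4 tDCS mice, so that FE and FF did not exceed the sham range (log2 fold change 0.83, SE 0.36, adjusted p = 0.684). Log2 fold changes of the endotoxin coreceptor Cd14, the coagulation factor gene F13a1 and the lysozyme gene Lyz2 were 0.99 (SE 0.49), 0.51 (SE 0.28) and 0.14 (SE 0.33). Of 12 eosinophil, basophil and mast cell markers 9 were higher (median 0.58, from 0.21 without FA to 1.25 without FB) and none had an unadjusted p under 0.05.

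Platelet markers leaned to opposite sides at the 2 electrode sites. At the prefrontal electrode 13 of 18 were higher with a median of 0.37 (0.18 without tdcs2, 0.01 with FE and FF alone). At the hippocampal electrode 6 of 18 were higher with -0.27 (7 of 18 with -0.13 without the pair in doubt). Of the 18, 5 had an interaction p under 0.05 against 6.78% of all genes, none after adjustment. Gp1bb, a chain of the von Willebrand factor receptor, stood at 7.56, 8.56, 6.53 and 6.61 CPM in FA to FD and at 33.6, 18.6, 9.45, 17.6, 13.6 and 42.0 CPM in tdcs7, tdcs2, BN, BO, FE and FF. It was the only platelet marker whose groups did not overlap (log2 fold change 1.62, SE 0.40, adjusted p = 0.442; hippocampal -0.38). Vwf and Thbs1 had log2 fold changes of 0.58 (SE 0.34) and 0.67 (SE 0.38), while the most abundant markers, Nrgn and the chemokine gene Ppbp, lay at -0.04 (SE 0.37) and 0.03 (SE 0.37). The summed list overlapped between the groups, from 5489 to 9614 CPM in the sham mice and 4935 to 9521 in the tDCS mice.

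NK cell markers were on the low side with prefrontal tDCS, 9 of 11 lower with a median of -0.48 (-0.31 without FC), while all 11 were higher at the hippocampal electrode, with a median of 0.75. Ncr1, the activating receptor NKp46, stood at 2.32, 1.10, 4.83 and 4.57 CPM in FA to FD and at 0.712, 1.63, 0.554, 1.86, 0.847 and 0.401 CPM in tdcs7, tdcs2, BN, BO, FE and FF. Sham mouse FB lay among the tDCS mice (log2 fold change -1.64, SE 0.53, adjusted p = 0.611). Gzma, the granzyme of cytotoxic granules, had a log2 fold change of -1.15 (SE 0.46), with FB at 14.0 CPM and the other sham mice at 39.3 to 46.0. The unadjusted interaction p between the sites was 0.00478 for Ncr1 and 0.00358 for Gzma, and the adjusted p was 0.587 for both. Klra8 had 1 read in the sham libraries and 34 in the tDCS libraries, found in tdcs2, FE and FF alone, a ratio of 23.3 with an exact 95% counting interval of 3.90 to 946; this receptor gene differs between mouse strains.

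Lymphocyte markers held no gene at an unadjusted p under 0.05. Of 14 B cell markers 13 were lower, with a median of -0.20, and of 15 T cell markers 8 were higher, with a median of 0.12. The directions of both lists turned with single mice: without sham mouse FB all 14 B cell markers were higher (median 0.40), without FE 7 of them were (median 0.02), and without FC the median of the T cell list was -0.28 and without BN -0.14. T cell markers summed to 29.2 CPM in sham mouse FC against 128 to 153 in the other sham mice and 70.4 to 196 in the tDCS mice. MHC class I genes were higher in 12 of 14 (median 0.19) and MHC class II genes in 4 of 10 (median -0.04), with no gene at an unadjusted p under 0.05 in either list. The tDCS mice were divided here. With FE and FF alone 13 of 14 class I genes (median -0.92) and all 10 class II genes (median -1.24) were lower. Of the lower genes 4 in each list had an unadjusted p under 0.05, against 3.63% of all genes in that setting. With the other 4 tDCS mice all 14 class I genes (median 0.53) and 8 of 10 class II genes (median 0.38) were higher. Without tdcs2 the class I median was -0.03, and without FB all 10 class II genes were higher (median 0.58).

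Of 20 erythroid markers 11 were higher, with a median of 0.01 and none at an unadjusted p under 0.05, but the tDCS mice lay on opposite sides. With FE and FF alone 16 were higher (median 0.36), 7 at an unadjusted p under 0.05 against 3.67% of all genes in that setting. With the other 4 tDCS mice 16 were lower (median -0.22). At the hippocampal electrode 18 of the 20 were lower, with a median of -0.41, but 13 with -0.10 without the pair of mice in doubt. Tfrc, the transferrin receptor of red cell precursors, stood at 755 CPM in FE, 161 in tdcs7 and 172 in FF against 18.2 to 41.4 in the other 3 tDCS mice and 47.3 to 105 in the sham mice (log2 fold change 1.61, SE 0.78). The tDCS mice thus lay on both sides of the sham range, and so they did for Rhag (0.68, SE 0.53). Bpgm, among the most abundant of the list, had a log2 fold change of -0.41 (SE 0.46). Of 9 haemoglobin genes 8 were lower (median -0.36), which rested on sham mouse FD, since without it 4 were higher and 5 lower (median -0.01). All 9 were higher at the hippocampal electrode (median 0.44), or 8 of 9 (median 0.91) without the pair in doubt. Hbq1a, the theta globin, was the one with an unadjusted p under 0.05 (log2 fold change -0.81, SE 0.38), while Hba-a1 and Hbb-bs lay at 0.01 (SE 0.62) and -0.47 (SE 0.80); the alpha and beta globin genes are near-identical copies whose reads can be split.

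Heat shock genes were lower in 9 of 10, with a median of -0.46 and 2 at an unadjusted p under 0.05, Hspa1a, the inducible HSP70 (log2 fold change -2.63, SE 0.90, adjusted p = 0.611), and its cochaperone Dnajb1 (-0.89, SE 0.38). The near-identical copy Hspa1b lay at -1.52 (SE 0.80) and the constitutive Hspa8 at -0.36 (SE 0.32). Hspa1a levels were low, from 0.22 to 3.96 CPM in the sham mice and from 0 to 0.605 in the tDCS mice. At the hippocampal electrode 8 of the 10 were higher, with a median of 0.53. Of the 10, 4 had an interaction p under 0.05 between stimulation and site, against 6.78% of all genes, none after adjustment.

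Interferon-stimulated genes split evenly, 10 higher and 10 lower, with a median of -0.08, which was 0.25 without FA and -0.43 without tdcs2, and 3 lower at an unadjusted p under 0.05. Ifit1 stood at 33.5, 8.14, 17.2 and 28.6 CPM in FA to FD and between 8.10 and 22.2 CPM in the tDCS mice, overlapping with FB and FC (log2 fold change -0.89, SE 0.39), and Ifit3 lay at -1.20 (SE 0.55). Ifi44 reached 1.70 CPM in FA and at most 0.0573 in any other mouse. The most abundant members, Rsad2 and Isg15, had log2 fold changes of 0.03 (SE 0.48) and 0.70 (SE 0.45). At the hippocampal electrode 17 of the 20 genes were higher, with a median of 0.50, or 16 with 0.75 without the pair in doubt.

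**Figure D5:**
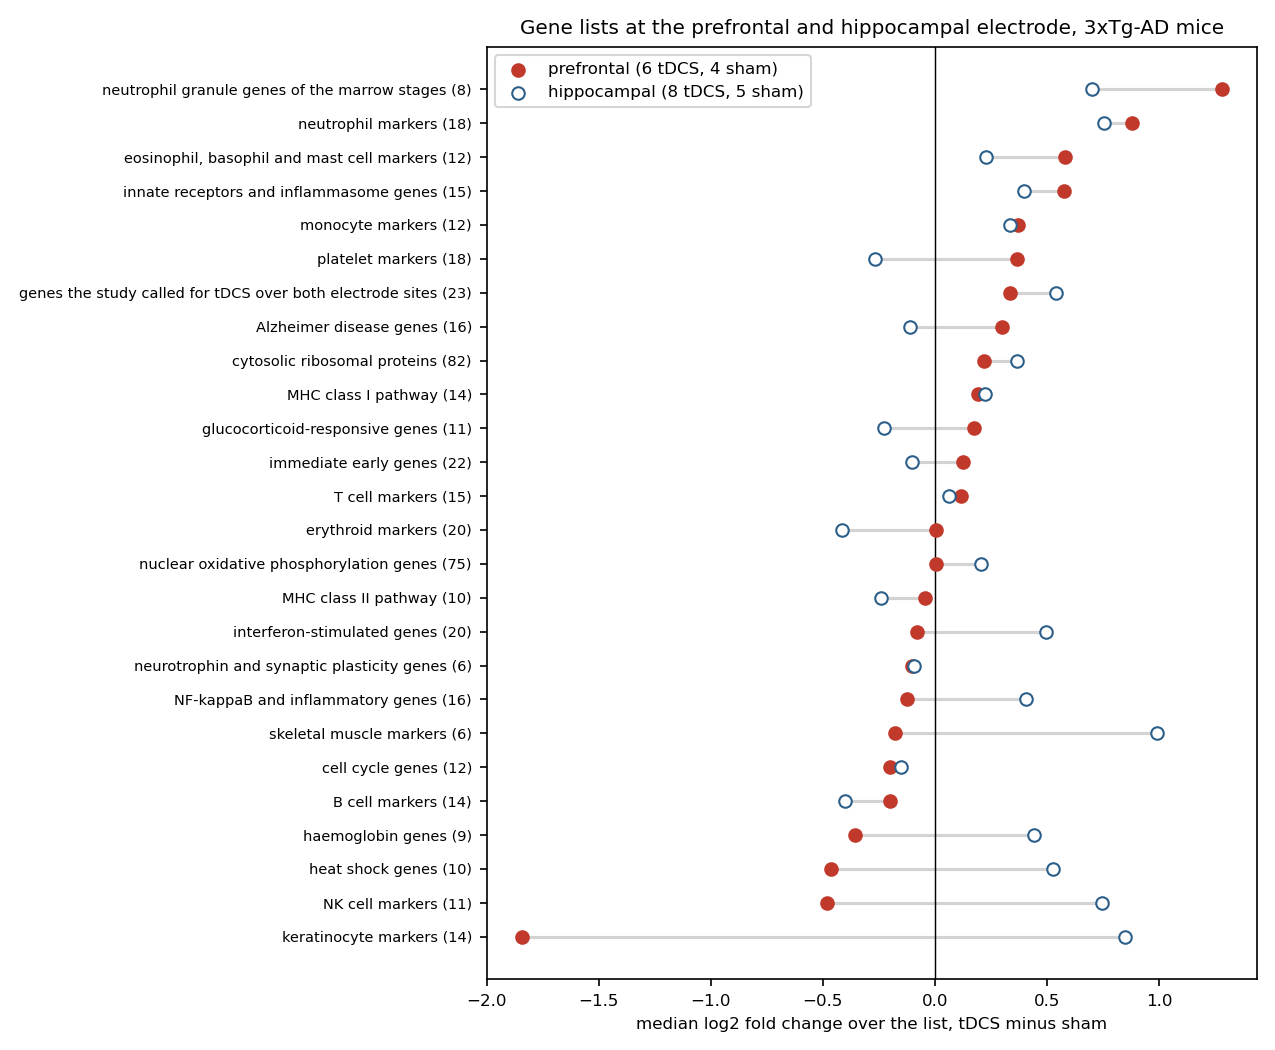
Median log2 fold change (tDCS minus sham) of each gene list at the prefrontal electrode (filled) and at the hippocampal electrode (open) of 3xTg-AD mice, with the number of genes tested in brackets. Neutrophil, granule, innate receptor and monocyte lists lie above 0 at both sites, and the keratinocyte, NK cell, heat shock and haemoglobin lists lie below 0 at the prefrontal and above 0 at the hippocampal electrode, except that the hippocampal keratinocyte median was -1.31 with DESeq2 and the prefrontal haemoglobin median 0.02 with FE and FF alone.

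Genes that answer to glucocorticoids, which rise with handling stress, were higher in 8 of 11, with a median of 0.17 (0.05 without BN, 0.37 without FC) and 2 at an unadjusted p under 0.05. The direction was not settled. With FE and FF as the only tDCS mice 4 were higher and 7 lower (median -0.26, against -0.17 over all genes). With the other 4 tDCS mice 7 were higher and 4 lower (median 0.29). With 1 surrogate variable the median was -0.05, against -0.06 over all genes, so neither value stands far from the shift of all genes. Fkbp5, a feedback regulator of the glucocorticoid receptor, stood at 1.88, 1.18, 2.48 and 0.606 CPM in FA to FD and at 3.48, 8.32, 1.80, 3.38, 5.51 and 2.64 CPM in tdcs7, tdcs2, BN, BO, FE and FF. BN overlapped the sham mice and the other 5 lay above them (log2 fold change 1.44, SE 0.50, adjusted p = 0.617). Mt1, a metallothionein, had a log2 fold change of 2.38 (SE 0.95) with FE at 20.5 CPM and the other tDCS mice at 0.655 to 4.19. Immediate early genes were higher in 15 of 22 (median 0.13, but -0.01 without FD and -0.03 without BN), none at an unadjusted p under 0.05. Jund and Egr3 were on the low side at both sites, Jund at -0.76 (SE 0.37) and Egr3 at -1.42 (SE 0.71) at the prefrontal electrode, against -0.72 (SE 0.22) and -2.07 (SE 0.51) at the hippocampal one. Of 16 NF-κB and inflammatory genes 7 were higher (median -0.13, or 0.13 without FB) and none had an unadjusted p under 0.05.

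Of 16 genes listed for Alzheimer's disease, 10 were higher, with a median of 0.30 (0.15 without tdcs7 or without BN). At an unadjusted p under 0.05, 2 were higher and 1 lower. With FE and FF as the only tDCS mice 7 were higher and 9 lower (median -0.03, against -0.17 over all genes). With the other 4 tDCS mice 10 were higher and 6 lower (median 0.35). Apoe, the lipid carrier, stood at 10.9, 5.86, 2.85 and 1.65 CPM in FA to FD and between 1.55 and 4.61 CPM in the tDCS mice, with FC and FD within the tDCS range (log2 fold change -1.14, SE 0.48, adjusted p = 0.66; hippocampal -0.56, SE 0.42). Cd33, a sialic acid receptor of myeloid cells, was at 1.18 (SE 0.53, adjusted p = 0.707; hippocampal 0.90, SE 0.40), and the lipid transporter Abca7 at 0.82 (SE 0.37). The abundant Clu and Picalm lay at 0.32 (SE 0.33) and -0.22 (SE 0.35). Of 13 neurotrophin and synaptic plasticity genes only 6 had reads enough to enter the table and be tested, 2 higher and 4 lower, none at an unadjusted p under 0.05, among them the transcription factor gene Creb1 (-0.05, SE 0.28) and the scaffold gene Homer1 (-0.15, SE 0.45).

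The lists of general cell functions had medians between -0.20 and 0.22. Cytosolic ribosomal protein genes were higher in 64 of 82 (median 0.22), 2 of them at an unadjusted p under 0.05, Rps27a (log2 fold change 0.79, SE 0.32) and Rpl26 (0.97, SE 0.46), while the abundant Rps29 and Rpl41 lay at -0.13 (SE 0.37) and -0.34 (SE 0.39). Their sum was 34230 CPM in FE against 14700 to 18480 in the other tDCS mice, and without FE 45 of the 82 were higher, with a median of 0.04. Nuclear oxidative phosphorylation genes were higher in 39 of 75 (median 0.00), with Cox6b2 at -1.02 (SE 0.34) and Ndufv1, whose groups did not overlap, at 1.01 (SE 0.36). Of 12 cell cycle genes 9 were lower (median -0.20, -0.48 without FE and -0.08 without FC). The list turned over with FE and FF as the only tDCS mice, where 9 were higher and 3 lower (median 0.39). All 12 were lower with tdcs7, tdcs2, BN and BO as the only tDCS mice (median -0.73). The direction of the cell cycle list was thus not settled. Its mitotic kinase gene Plk1 lay at -1.38 (SE 0.65) over all tDCS mice. Of 6 skeletal muscle genes 3 were higher.

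The names of all 4 sham mice begin with F, as do those of tDCS mice FE and FF, and the labels do not say what the names stand for. FE and FF alone against the 4 sham mice gave 9 called genes, all higher, whereas the other 4 tDCS mice against the same sham mice gave none, with 1123 genes at an unadjusted p under 0.05. Besides Stfa2 (adjusted p = 0.00451) and Mmp8 (adjusted p = 0.0113) these were Asns, asparagine synthetase (0.00641), Atf5, a transcription factor of the amino acid and mitochondrial stress response (0.0071), Shmt2 of mitochondrial one-carbon metabolism (0.0359), Gstt1 (0.025), Nacad (0.025), Wfdc21 (0.025) and Gm32051 (0.00206); these 7 are named after their values were seen. With FE and FF alone the median log2 fold change of all genes was -0.17, so the calls are relative to that shift. Atf5 stood at 19.8, 12.1, 23.9 and 33.3 CPM in FA to FD and at 367, 47.1, 13.8, 119, 883 and 90.1 CPM in tdcs7, tdcs2, BN, BO, FE and FF. Only BN lay within the sham range, so high Atf5 was not a property of FE and FF alone (log2 fold change over all 6 mice 3.51, SE 0.86, adjusted p = 0.442; hippocampal -1.39, SE 0.72). Asns was highest in FE, at 140 CPM, then 28.4 in tdcs7 and 20.6 in FF, and stood at 3.14 to 6.16 CPM in the sham mice and 2.20 to 10.3 in tdcs2, BN and BO. Shmt2 (log2 fold change 2.07, SE 0.69) and Nacad (1.997, SE 0.82) were likewise highest in FE, FF and tdcs7. Gstt1, a glutathione transferase, stood at 85.6 CPM in FF and 44.7 in tdcs7 and at 1.005 to 4.18 in the sham mice. Wfdc21, a secreted antibacterial protein, stood at 213 CPM in FE, 159 in tdcs2, 100 in tdcs7 and 86.9 in FF, with BN and BO at 32.9 and 28.7 within the sham range of 17.5 to 35.4 (log2 fold change 2.07, SE 0.51; hippocampal 1.39, SE 0.65).

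Within the 6 tDCS mice, FE and FF against the other 4 gave no called gene, with 1392 genes at an unadjusted p under 0.05, and 69 genes by the DESeq2 likelihood ratio test. Over all autosomal genes, 52.1% had the same sign at the prefrontal and the hippocampal electrode. Of the 440 genes higher at an unadjusted p under 0.05 with prefrontal tDCS, 259 had the same sign at the hippocampal electrode (58.9%), and of the 564 lower genes 261 did (46.3%). These shares are a description with no test.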

How the data were processed

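Whole blood RNA was depleted of globin transcripts, made into 3′ mRNA libraries and sequenced on an Ion Proton by the authors. Per the labels, reads were trimmed with cutadapt 1.14 and aligned to mm10 with STAR 2.6, which also counted them; the authors merged the samples and removed genes with few reads. The deposited values are raw counts of reads per gene in 42 mice. Whether counting used strand is not given in the sources used here. Gene names were matched to GENCODE M21, and 15607 of 15613 were found.

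From the counts, edgeR 4.0.16 (R 4.3.3) was run on the 10 mice: TMM scaling, genes with at least 1 read, glmQLFit and glmQLFTest, and Benjamini-Hochberg adjustment over all genes tested, called at adjusted p under 0.05. CPM use TMM-scaled library sizes. Hippocampal mice were fitted alone and, for the interaction, with the prefrontal mice (23 mice). Alternatives were DESeq2 1.42.0, limma 3.58.1 voom with sample quality weights, sva 3.50.0 with 1 surrogate variable, RLE scaling, filterByExpr, haemoglobin share as a covariate, haemoglobin genes left out, fits of 23 and 42 mice, and single mice left out. Single library measures were compared by exact permutation tests. Scripts were tested on simulated counts. RNA integrity values were not used.

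The mice, the 26 gene lists and the tests were chosen with earlier results of these data known. Genes named are the 5 with the smallest p in each direction, of each list the 3 with the smallest p and the 2 with the highest mean CPM, and the genes the study called for tDCS; others are said to be chosen after their values were seen. A few genes that this rule names are not reported here. Each sample is 1 mouse.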

Additional observations from a re-analysis of the deposited data

Results flagged for a closer look

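A single mouse lay far from the rest of its group in 27 of 270 series of values examined. The measure was the gap to the nearest mouse, as a share of the whole range of the group. It was taken on the log2 scale for gene levels and list sums, and on the values themselves for library measures. Chance gives about 1 in 20 for independent, normally distributed values, which these are not, and the rate for them was not measured. Mouse FE did so on the first principal component (gap 0.672), in the sum of cytosolic ribosomal proteins (0.729), and in Rps29 (0.75), Mical3 (0.749) and Ybx3 (0.633), in each gene and in the ribosomal sum as the highest tDCS mouse.

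Among the sham mice, FC was the highest in the sum of platelet markers (gap 0.871), Nrgn (0.854) and Ppbp (0.833), and the lowest in the sum of T cell markers (0.889). FB was the lowest in the sums of cell cycle genes (0.84) and of nuclear oxidative phosphorylation genes (0.831), in Samd4 (0.829) and in Gzma (0.867), and the highest in Camp (0.858). FA was the highest in Pkp1 (0.916) and Ifi44 (0.912). FD was the lowest in the sum of glucocorticoid-responsive genes (0.839) and in Shmt2 (0.838), and the highest in Hbb-bs (0.87).

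Among the tDCS mice, BO was the lowest in Retnlg (gap 0.632) and Cox6b2 (0.647), BN the lowest in F13a1 (0.634) and tdcs2 the highest in Tmpo (0.668). The gap was 1, since every other mouse of the group had no read, for Itgb2l in sham mouse FB, Klra8 in sham mouse FC, and Evpl and Elf3 in tDCS mouse tdcs2. No gene was called for a difference between the electrode sites by edgeR.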

How the results depend on the processing

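The absence of called genes with prefrontal tDCS held with RLE scaling, filterByExpr, voom, 1 surrogate variable, the haemoglobin share as covariate, haemoglobin genes left out, adjustment over autosomal genes and a fit of 23 mice; 7 genes were called by DESeq2, 2 by the fit of 42 mice, 9 with FE and FF as the only tDCS mice and 1 without FA and FE (Clec2e, lower, adjusted p = 0.0395, an alternative added after seeing the data), and leaving out single mice gave 0 to 1, Stfa2 without BN or without BO. The cause was not tested. DESeq2 also called 1 gene for the interaction of stimulation and site (Stfa2), 43 genes at the hippocampal electrode and 69 between FE and FF and the other tDCS mice. Leaving out single mice gave 0 to 176 genes in that last comparison, 176 without tdcs7, 11 without tdcs2 and 5 without FF. The difference in haemoglobin share ran from -3.24 without FC to 5.98 percentage points without FD. Of 103 genes followed, 87 kept their direction in every alternative, and of 2354 values 47 changed sign and 19 newly passed the threshold. With tdcs7, tdcs2, BN and BO alone the log2 fold change was -0.022 for Tfrc, -0.075 for Rhag, 0.11 for Nrgn, -0.0075 for Ppbp, -0.37 for Rsad2 and 0.057 for Creb1. With FE and FF alone it was -0.48 for Hba-a1, 0.45 for Hbb-bs, -0.24 for Lyz2, 0.57 for Homer1, 0.34 for Rps29 and 0.24 for Rpl41. Hba-a1 lay at -0.23 and Hbb-bs at 0.0047 with the haemoglobin covariate, Hba-a1 at -0.011 with filterByExpr, Hba-a1 at -0.21 and Rsad2 at -0.14 with voom, and Rsad2 at -0.050 with the surrogate variable. Without FA and FE, Nrgn was at 0.014, Pkp1 at 0.29, Sfn at 0.47, Ifi44 at 0.80 and Rsad2 at -0.26. Leaving out single mice, Creb1 ran from -0.13 to 0.086, Hba-a1 from -0.58 to 0.16, Hbb-bs from -1.11 to 0.91, Homer1 from -0.58 to 0.10, Ifi44 from -4.82 to 0.63, Nrgn from -0.22 to 0.15, Picalm from -0.41 to 0.019, Pkp1 from -5.34 to 0.15, Ppbp from -0.076 to 0.29, Rsad2 from -0.26 to 0.21 and Sfn from -0.74 to 0.37. Of the 26 list medians, 10 kept their sign in every alternative. No paired analysis was made, since each mouse received either tDCS or sham and the labels name no pairs. With 4 sham mice, 1 library decides many single values, and genes near 1 CPM rest on few reads.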
